A study of Mus musculus with 4 samples.

Results

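Ace/Treml4 monocytes were taken from single-cell RNA libraries of immune cells of B16-F10 mouse melanoma by raw counts of unique molecular identifiers (UMIs, each 1 captured transcript). A cell belonged to the group if Ace, Adgre4 and Treml4 summed to at least 3 UMIs, Lyz2 had at least 5, the complement genes C1qa, C1qb and C1qc summed to fewer than 10, Xcr1 and Clec9a to fewer than 2, and Cd3d, Cd3e and Cd3g to at most 1. Among the 8822 cells that passed the limits on detected genes (1000 or more, fewer than 6000) and on mitochondrial UMIs (under 10%), 99 met the rule. They were 72 of 4699 cells in the ZsG-negative library, or 1.53% (95% exact Clopper-Pearson interval 1.20 to 1.93), and 27 of 4123 cells in the ZsG-positive library, or 0.655% (0.432 to 0.951). The rule uses measured levels of these genes, so their levels are described here and not tested. Each gate was 1 library with no replicate, so that no comparison carries a p-value. All intervals are 95% and cover counting error only.

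B16-F10 is an established mouse melanoma line. In the study its cells carried a doxycycline-inducible gene for the cytoplasmic green fluorescent protein ZsGreen (ZsG), and the line was a single bright clone. The cells were injected subcutaneously into wild-type C57BL/6 mice that drank doxycycline before harvest, and tumors were digested 8 days after injection. CD45+ cells were sorted into ZsG-negative cells and into ZsG-positive cells, which carried the tumor-made protein, to learn which immune cells take up tumor material. According to the study this sort took bright cells as ZsG-positive, and most lymphocytes with ZsG were collected as ZsG-negative. Both groups had the same tumor and the same doxycycline, the sources used here do not give the number of mice behind each library, and sort gate, library and animals cannot be told apart. Sequencing gave 47537541 UMIs over 5437 barcodes of ZsG-negative cells and 56510578 UMIs over 5168 barcodes of ZsG-positive cells. The libraries shared 6 cell barcodes, none of them in an Ace/Treml4 monocyte.

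Monocytes circulate in a classical form, which carries Ly6C and the chemokine receptor CCR2 and enters inflamed tissue, and a non-classical form, which patrols the vessel wall through CX3CR1 and the integrin LFA-1. Non-classical monocytes arise from classical ones, and the nuclear receptor NR4A1 and the factor C/EBPβ are needed for their formation and survival. Ace encodes angiotensin-converting enzyme, Treml4 a receptor that binds dying cells, and Adgre4 an adhesion receptor of myeloid cells. All 3 genes mark the non-classical form in mice.

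The ZsG-negative cells cleared the gate by a wider margin than the ZsG-positive cells. The summed Ace, Adgre4 and Treml4 count of the 72 ZsG-negative cells ran from 3 to 26 UMIs with a median of 7, and 40 of them held all 3 genes. The 27 ZsG-positive cells ran from 3 to 12 UMIs with a median of 3, and 4 held all 3 genes. Thus 15 of 27 ZsG-positive cells stood exactly at the limit of 3 UMIs, against 8 of 72 ZsG-negative cells, and 1 against 18 reached 10 UMIs. Just outside the gate, 23 ZsG-negative and 30 ZsG-positive cells that met every other limit had a sum of 2, and 37 and 90 had a sum of 1. The median depth was 7534 UMIs per ZsG-negative and 6174 per ZsG-positive Ace/Treml4 monocyte.

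**Figure D1:**
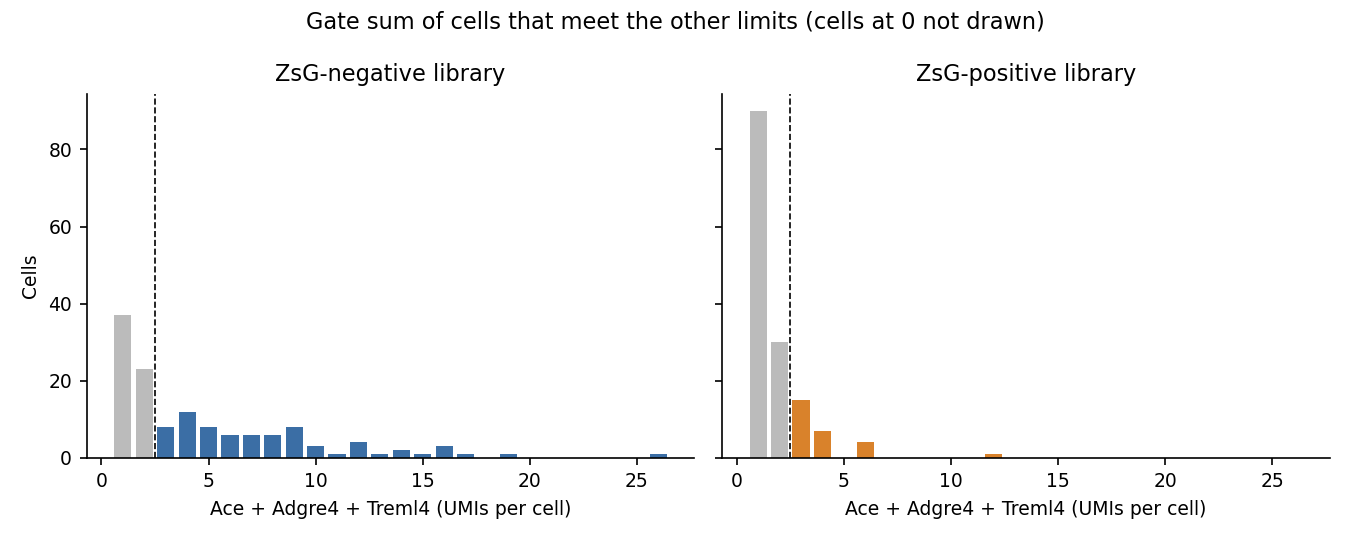
Number of cells (vertical axis) by the summed UMIs of Ace, Adgre4 and Treml4 per cell (horizontal axis) in each library, for cells that meet the other limits. Coloured bars right of the dashed line are Ace/Treml4 monocytes and grey bars are cells just outside. In the ZsG-positive library 15 of 27 cells stand at 3 UMIs.

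The natural comparison was with monocytes that held at least 5 UMIs of Vcan and Chil3, genes of the classical form, met the same other limits and fell outside the gate. There were 113 of these Vcan/Chil3 monocytes in the ZsG-negative library (median 8524 UMIs) and 555 in the ZsG-positive library (median 7121 UMIs). The groups were not opposite poles. Among Ace/Treml4 monocytes, 30 of 72 ZsG-negative and 14 of 27 ZsG-positive cells also reached 5 UMIs of Vcan and Chil3. Levels below are UMIs per 1000000 UMIs (CPM) of the summed cells of a group, and a ratio is the log2 ratio of such levels with 0.5 added to each sum. A gene was called higher or lower at 2-fold in this ratio, among genes with at least 20 UMIs over both groups.

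The gate genes were as follows. Ace (ENSMUSG00000020681, mm10 chr11:105967945-105989964) stood at 428.0 CPM (375.8 to 485.5) in ZsG-negative and 236.4 CPM (168.9 to 321.9) in ZsG-positive Ace/Treml4 monocytes, against 12.7 and 8.23 CPM in Vcan/Chil3 monocytes. Adgre4 (ENSMUSG00000032915, chr17:55749984-55853662) stood at 263.5 and 218.7 CPM, against 21.4 and 2.82 CPM. Treml4 (ENSMUSG00000051682, chr17:48264295-48275360) stood at 307.7 and 189.1 CPM, against 11.7 and 5.63 CPM. These distances are set by the rule.

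Each gate gene was then read in cells chosen without it, by at least 3 UMIs of the remaining pair. In the ZsG-negative library, Ace reached 444.6 CPM (381.5 to 515.1) in 52 cells chosen by Adgre4 and Treml4, against 36.6 CPM in Vcan/Chil3 monocytes defined the same way. After each cell was thinned to 3000 UMIs, 68.6% of 51 such cells held Ace (54.1 to 80.9), against 8.94% of 123 Vcan/Chil3 monocytes. Of 2117 NK-like cells (at least 2 UMIs of Ncr1 and Klrb1c, at most 1 of Lyz2), 0 held Ace, which allows a share of up to 0.174% (exact upper limit). NK-like cells should lack the gene and were used to gauge free RNA. Their limit on Lyz2 leaves out cells with more myeloid RNA, so that their levels may understate it. Adgre4 and Treml4 gave 242.6 CPM in 63 cells and 314.1 CPM in 60 cells, against 32.2 and 29.2 CPM. Thus each of the 3 genes was found with the other pair in ZsG-negative cells, at levels above the intervals of the comparison cells.

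The same readout was thinner in the ZsG-positive library. Ace stood at 74.2 CPM (27.2 to 161.6) in 13 cells, on 6 UMIs, against 12.0 CPM in Vcan/Chil3 monocytes. Adgre4 stood at 128.5 CPM (64.1 to 229.9) in 14 cells, against 6.41 CPM. Treml4 stood at 87.3 CPM (37.7 to 172.0) in 14 cells, against 7.94 CPM. These levels lay above those of the comparison cells, but the thinned share for Ace was 1 of 11 cells, or 9.09% (0.230 to 41.3), against 4.64% of 561 Vcan/Chil3 monocytes, which is within its interval. For Adgre4 and for Treml4 the thinned share was 3 of 13 cells, or 23.1% (5.04 to 53.8). The Vcan/Chil3 monocytes stood below these intervals, at 1.60% of 562 and 2.32% of 560 cells. The ZsG-positive cells thus met the rule more often through 1 or 2 genes near the limit, and their label rests on less.

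Of the 5 genes that name the cells, Hpgd and Cx3cr1 were not part of the gate. Cx3cr1 (ENSMUSG00000052336, chr9:119901616-120069879), the fractalkine receptor, stood at 265.3 CPM in ZsG-negative Ace/Treml4 monocytes against 159.8 CPM in Vcan/Chil3 monocytes, a log2 ratio of 0.73 (0.40 to 1.06), below 2-fold. In the ZsG-positive library it stood at 65.0 against 10.4 CPM, a log2 ratio of 2.69 (1.55 to 3.61). Hpgd (ENSMUSG00000031613, chr8:56294585-56321043), which encodes the enzyme that inactivates prostaglandins, stood at 245.8 against 189.1 CPM in the ZsG-negative library, a log2 ratio of 0.38 (0.05 to 0.70). After thinning, Hpgd was found in 33.8% of 71 Ace/Treml4 monocytes and in 35.4% of 113 Vcan/Chil3 monocytes. In ZsG-positive cells Hpgd rested on 4 UMIs, 23.6 against 7.15 CPM, with a log2 ratio of 1.87 whose interval (-0.23 to 3.22) held 0. After thinning it was found in 3 of 24 of these cells, or 12.5% (2.66 to 32.4), against 1.99% of 554 Vcan/Chil3 monocytes. Hpgd therefore differed little from Vcan/Chil3 monocytes in the ZsG-negative library and rested on few counts in the ZsG-positive one, and the cells are called here by their gate genes.

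**Figure D2:**
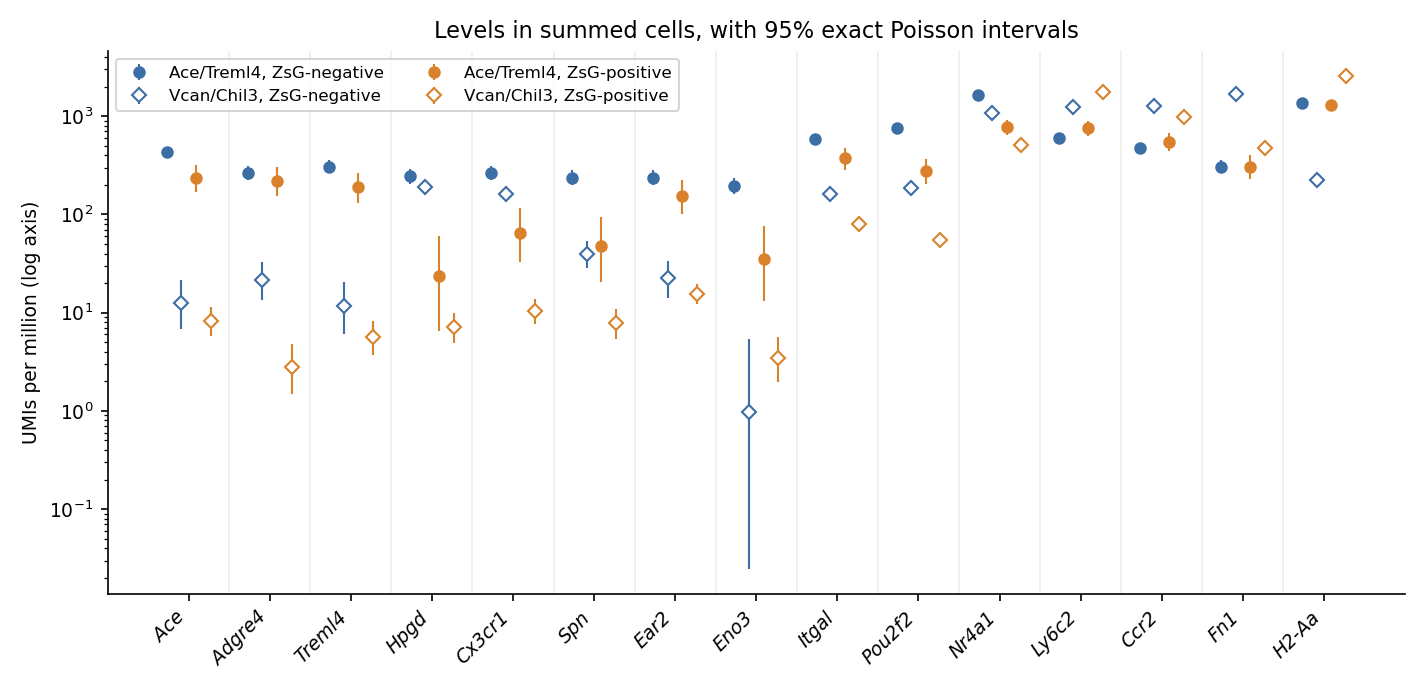
Levels (CPM, log axis) of 15 genes in the summed cells of each group and library, with bars for 95% exact Poisson intervals. Filled circles are Ace/Treml4 monocytes and open diamonds Vcan/Chil3 monocytes. Ace, Adgre4, Treml4, Spn, Ear2, Itgal and Pou2f2 lie higher in Ace/Treml4 monocytes of both libraries, and H2-Aa changes sides between them.

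Over 6246 genes tested in both libraries, 98 (1.57%) were at least 2-fold higher in Ace/Treml4 monocytes in both and 68 (1.09%) at least 2-fold lower in both, with median log2 ratios of all genes of 0.0227 and 0.0847. A scaling by trimmed mean of M values (TMM) moved these medians to -0.0324 and -0.152 and the split to 68 higher and 101 lower. In this comparison 38 genes passed 2-fold in opposite directions.

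Non-classical monocyte genes stood higher in Ace/Treml4 monocytes of both libraries. Of its 28 genes tested in both libraries, 14 were higher in both and 0 lower, with median log2 ratios of 1.89 and 1.32. A stricter setting left out cells with 2 or more UMIs of NK, T, B cell and plasmacytoid dendritic cell genes. The deepest 5% of cells were also left out. This kept 19 of 72 and 11 of 27 Ace/Treml4 monocytes, and 20 of 113 and 246 of 555 Vcan/Chil3 monocytes. Below, the cells left out are called cells of other lineages and deepest cells for short, but their lineage was not tested. Under this setting 8 of 20 list genes were higher and 0 lower, with medians of 1.02 and 1.09. Among all genes 39 of 2275 were higher and 28 lower. In the ZsG-negative library Ear2 then stood at 2.46 and Spn at 1.60, in place of 3.38 and 2.56. The summed level of the list was 13740 CPM in ZsG-negative Ace/Treml4 monocytes against 7104 CPM in Vcan/Chil3 monocytes, and 7648 against 4236 CPM in the ZsG-positive library. The list was drawn up from knowledge of the cell type with earlier results of these data known.

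Ear2 (ENSMUSG00000072596, chr14:44102654-44103534), which encodes a secreted ribonuclease, led the genes higher in both libraries. It stood at 237.0 CPM against 22.4 CPM in the ZsG-negative library and at 153.7 against 15.6 CPM in the ZsG-positive library. The log2 ratios were 3.38 (2.76 to 4.11) and 3.32 (2.59 to 3.97), and after thinning 42.3% and 33.3% of Ace/Treml4 monocytes held the gene, against 6.20% and 2.89% of Vcan/Chil3 monocytes. Ear2 belongs to a family of near-identical copies, among which reads can be split uncertainly.

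Adhesion and surface genes of the patrolling form were among the leading genes. Spn (chr7:127132232-127137823), which encodes CD43, stood at 237.0 against 40.0 CPM in the ZsG-negative library and at 47.3 against 7.80 CPM in the ZsG-positive library, with log2 ratios of 2.56 (2.05 to 3.11) and 2.67 (1.28 to 3.73). NK-like cells also carried Spn, at 117.2 and 98.2 CPM. Itgal, the alpha chain of LFA-1, stood at 585.4 against 159.8 CPM and at 372.4 against 80.8 CPM, with log2 ratios of 1.87 (1.60 to 2.15) and 2.21 (1.80 to 2.59). Ceacam1, an adhesion molecule with inhibitory signalling, had log2 ratios of 2.08 and 2.76. Heg1, a large membrane glycoprotein known from vessels, had log2 ratios of 2.36 and 3.39 on 32 and 7 UMIs. The wider list of adhesion and trafficking receptors had 3 of 18 genes higher in both and 0 lower, against 1.57% and 1.09% of all genes, with median log2 ratios of 0.17 and 0.57.

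Signalling genes and transcription factors followed. Gngt2, a G protein gamma subunit, stood at 1201 against 302.2 CPM in the ZsG-negative library and at 650.2 against 125.6 CPM in the ZsG-positive library, with log2 ratios of 1.99 (1.79 to 2.19) and 2.38 (2.06 to 2.67). Pou2f2, which encodes the octamer-binding factor OCT2, stood at 757.0 against 188.1 CPM and at 277.8 against 54.8 CPM, with log2 ratios of 2.01 (1.76 to 2.26) and 2.35 (1.86 to 2.80). Hes1, a Notch target, stood at 122.0 against 15.6 CPM and at 112.3 against 26.9 CPM. Pou2f2 and Hes1 were the only genes of the 25 tested on the list of monocyte fate factors that were 2-fold higher in both libraries (all genes 1.57%), and none was lower in both. Grk3, a kinase of G protein-coupled receptors, had log2 ratios of 2.58 and 2.96, Stk10, a kinase of leukocytes, 1.60 and 2.17, and Trem3, a myeloid receptor, 1.81 and 2.66.

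Eno3, the muscle form of the glycolytic enzyme enolase, gave the widest separation in ZsG-negative cells at the gate sum of at least 3. It had 110 UMIs in 41 of 72 Ace/Treml4 monocytes (194.6 CPM, 159.9 to 234.5) and 1 UMI in the 113 Vcan/Chil3 monocytes, a log2 ratio of 7.06 (5.13 to 12.96). In the ZsG-positive library it had 6 UMIs in 5 of 27 cells (35.5 CPM) and 16 UMIs in 555 Vcan/Chil3 monocytes (3.47 CPM), a log2 ratio of 3.43 (1.71 to 4.78), while NK-like cells stood at 17.5 CPM. With a gate sum of at least 5 the ZsG-negative ratio of Eno3 was 4.31, below that of Cd36 (4.76).

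Several genes known for the non-classical form differed by less. Nr4a1 stood at 1634 against 1073 CPM in the ZsG-negative library and at 768.4 against 509.6 CPM in the ZsG-positive library, log2 ratios of 0.61 and 0.60. It was found in all 72 and in 24 of 27 Ace/Treml4 monocytes, and in 112 of 113 and 490 of 555 Vcan/Chil3 monocytes. Cebpb, which encodes C/EBPβ, had log2 ratios of 0.46 (0.37 to 0.55) and 0.39 (0.23 to 0.54), and Csf1r, the receptor of the growth factor CSF1, 0.61 and 0.73. Both regulators thus stood higher in Ace/Treml4 monocytes of both libraries, by less than 2-fold. With a gate sum of at least 5, which left 5 ZsG-positive cells, Nr4a1 turned to -0.11 in that library.

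Other members of the list differed in the ZsG-negative library and less, or on too few counts, in the ZsG-positive one. Cd36, a scavenger receptor, stood at 118.5 against 4.87 CPM (log2 ratio 4.48) and at 130.0 against 68.0 CPM (0.97). Its ZsG-negative ratio was 2.54 without the cells of other lineages and the deepest cells. It was 7.35 against Vcan/Chil3 monocytes with no gate UMI, a comparison added after seeing the data. Fabp4, a fatty acid carrier, had log2 ratios of 5.11 and 0.43, the latter on 2 UMIs. Fcgr4 (chr1:171018920-171029761), the activating Fc receptor of patrolling monocytes, stood at 309.5 against 85.8 CPM (1.85) and at 413.8 against 311.2 CPM (0.42). Its level in Ace/Treml4 monocytes was thus similar in both libraries, and the level in Vcan/Chil3 monocytes was not. Bcl2, which protects from cell death, had log2 ratios of 2.73 (1.75 to 3.96) and 1.12 (-2.29 to 2.79), the latter on 2 UMIs.

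**Figure D3:**
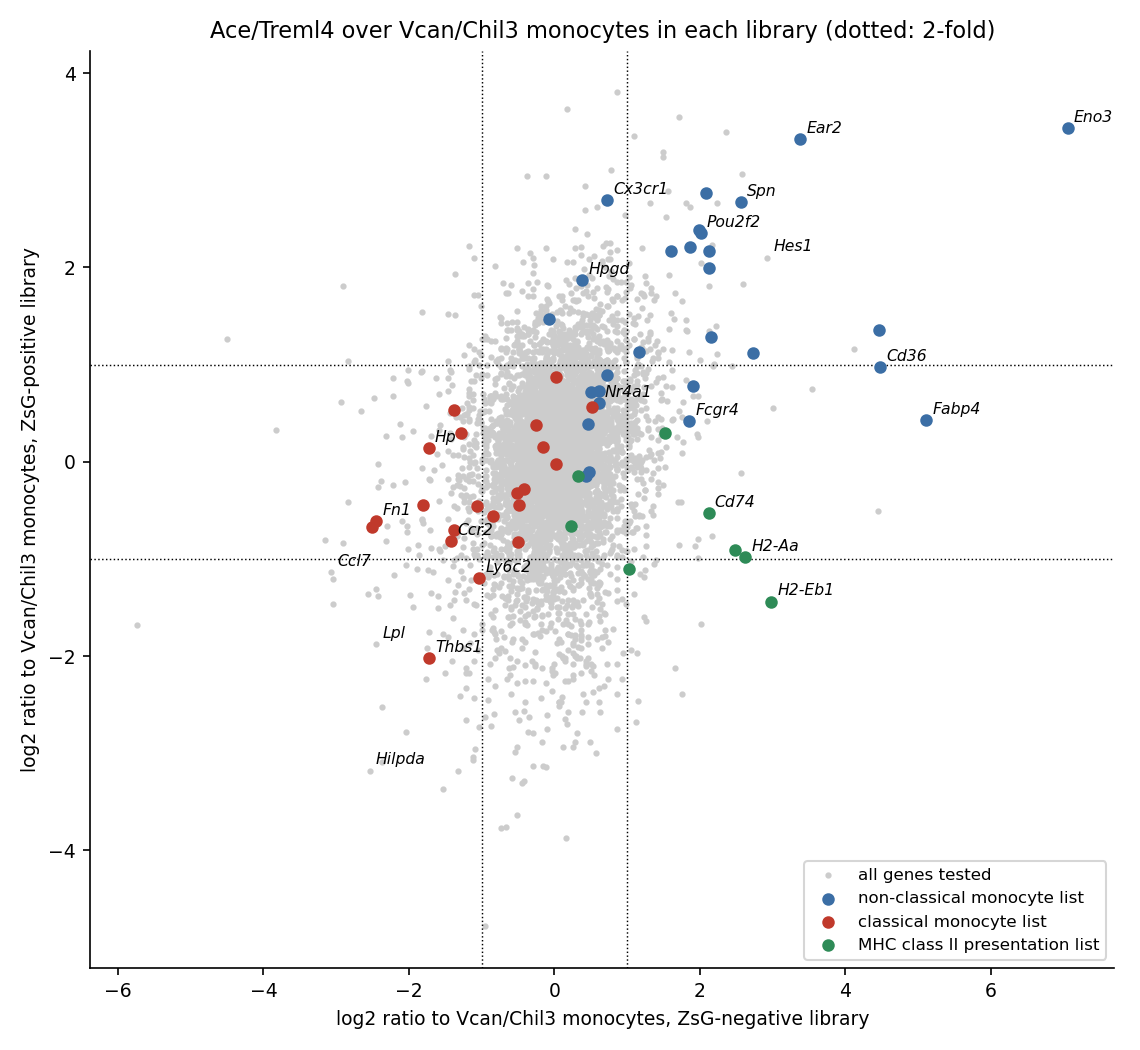
The log2 ratio of Ace/Treml4 over Vcan/Chil3 monocytes in the ZsG-negative (horizontal axis) and ZsG-positive library (vertical axis), 1 point per gene tested in both, with dotted lines at 2-fold. Blue points of the non-classical list lie mostly to the upper right, where Ear2 stands at 3.38 and 3.32, and green points of the MHC class II list to the lower right.

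Short stretches at the starts of Ear2 and Fcgr4 are shown because a search of promoters found letters of factors linked to monocyte fate there. The Ear2 stretch lies before the gene's start, and the Fcgr4 stretch spans it. The windows were RefSeq promoters of 300 bases (GRCm38.p6, the assembly of mm10), searched on both strands, with a promoter at hand for 28 of the 33 non-classical and gate genes. The C/EBP letters TTGCACAA stood in 1 of the 28 (Ear2), against 1.13% of all 27025 genes with a promoter. The PU.1 letters GAGGAAGT stood in 3 of the 28 (Fcgr4, Cd300ld and Adgre4), against 3.69%. The octamer ATTTGCAT and the NR4A letters AAAGGTCA stood in 0 of the 28, against 1.97% and 1.70% of all genes with a promoter. The match is in capitals in the stretches, given 5′ to 3′ on the plus strand, and in Fcgr4 it is the reverse complement of the letters searched. A match describes these windows and is no evidence of binding. 
Ear2, chr14:44102534-44102601: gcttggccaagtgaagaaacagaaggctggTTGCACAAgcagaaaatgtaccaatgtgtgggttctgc
Fcgr4, chr1:171018872-171018939: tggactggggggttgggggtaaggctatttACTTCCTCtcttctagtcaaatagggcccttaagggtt

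Genes of the classical form stood lower in Ace/Treml4 monocytes of the ZsG-negative library, where 11 of 21 were lower (all genes 4.5%) and 0 higher. Among ZsG-positive cells 2 of 22 were lower and 1 higher, and 12.2% of all genes were lower there, so that the list did not stand out by its count. Of the 21 genes tested in both libraries, 0 were higher and 2, Ly6c2 and Thbs1, lower in both (all genes 1.09%). The median log2 ratios were -1.03 and -0.45. With a gate sum of at least 5, 4 of 21 were lower in both (76 of 6178 among all genes). With Ace/Treml4 monocytes of fewer than 5 UMIs of Vcan and Chil3, 7 of 21 were lower in both, with medians of -1.62 and -0.83. That choice, made after seeing the data, selects on genes of the classical form, and 120 of 5811 genes were lower in both under it. Vcan and Chil3 chose the comparison cells and are left out of these counts.

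Ly6c2, which encodes the Ly6C antigen, stood at 604.9 CPM (542.5 to 672.5) against 1236 CPM in the ZsG-negative library and at 756.6 (631.2 to 899.6) against 1751 CPM in the ZsG-positive library. The log2 ratios were -1.03 (-1.21 to -0.86) and -1.20 (-1.47 to -0.96). Per cell, the median was 1 UMI in ZsG-negative Ace/Treml4 monocytes and 8 in Vcan/Chil3 monocytes, and 3 against 9 in the ZsG-positive library. Some Ace/Treml4 monocytes were therefore rich in Ly6c2, up to 61 UMIs, and 7 cells held 55.0% of the ZsG-negative UMIs. Reads of Ly6c2 can be confused with its close copy Ly6c1.

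Ccr2 stood at 474.0 against 1271 CPM in the ZsG-negative library (log2 ratio -1.42, -1.62 to -1.23) and at 549.7 against 978.9 CPM in the ZsG-positive library (-0.82, -1.14 to -0.54). All 113 ZsG-negative Vcan/Chil3 monocytes held Ccr2, against 48 of 72 Ace/Treml4 monocytes. Fn1, which encodes fibronectin, stood at 306.0 against 1678 CPM (-2.45) and at 307.4 against 475.1 CPM (-0.61). Plac8, also on the classical list, went the other way, at 5078 against 3553 CPM and 5320 against 3599 CPM (0.52 and 0.56). Hp, haptoglobin, was lower in the ZsG-negative library (-1.73) and near equal in the ZsG-positive one (0.14).

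Thbs1, Lpl, Hilpda and 4 chemokine genes were among those lowest in both libraries. Thbs1 encodes thrombospondin and stood at 206.9 against 682.3 CPM in the ZsG-negative library and at 70.9 against 299.9 CPM in the ZsG-positive library, log2 ratios of -1.72 and -2.02. With a gate sum of at least 2 its ZsG-positive ratio turned to 0.11, which ends its call on the classical list. Lpl, lipoprotein lipase, stood at 24.8 against 139.4 CPM and at 301.4 against 1124 CPM (-2.45 and -1.88). Hilpda, a lipid droplet protein induced by low oxygen, had log2 ratios of -2.54 and -3.18 on 6 and 3 UMIs, and 40 of the 68 UMIs of ZsG-negative Vcan/Chil3 monocytes came from 1 cell. It was 1 of 3 genes, with Hk2 and Ero1l, lower in both libraries among 12 tested on the hypoxia and glycolysis list (all genes 1.09%), whose median log2 ratios were -0.21 and -0.95. The count was 1 of 12 against Vcan/Chil3 monocytes with no gate UMI (a comparison added after seeing the data), 2 of 12 with a gate sum of at least 5, and 0 of 5 without the cells of other lineages and the deepest cells. Ccl2, Ccl6, Ccl7 and Ccl9, chemokines that attract monocytes and other leukocytes, were lower in both, with log2 ratios of -1.53 and -1.01, -1.16 and -1.87, -3.07 and -1.14, and -1.60 and -1.38. In the ZsG-negative library Ccl7 rested on 4 UMIs against 68, of which 48 came from 1 of the 5 Vcan/Chil3 monocytes that held it, and its log2 ratio there turned to 0.22 without the cells of other lineages and the deepest cells. Ier3, an early stress gene, had log2 ratios of -1.60 and -1.51, and Mt1, metallothionein, -1.67 and -1.14.

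**Figure D4:**
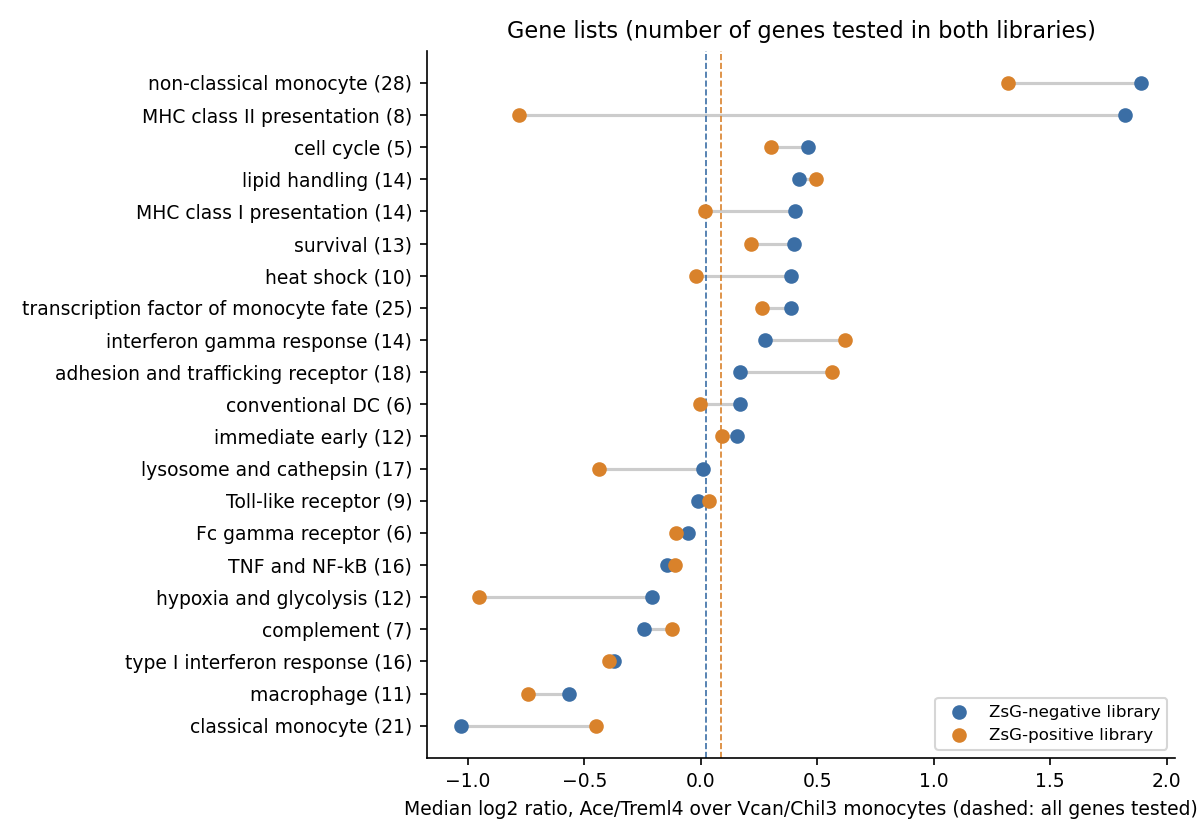
Median log2 ratio of Ace/Treml4 over Vcan/Chil3 monocytes for each gene list (number of genes tested in both libraries in brackets), with dashed lines at the medians of all genes. Lists with fewer than 5 genes tested are not drawn. Of those drawn, the non-classical list stands highest in both libraries, the classical list lowest in the ZsG-negative library, and the MHC class II list lies at 1.82 in the ZsG-negative and -0.78 in the ZsG-positive library (-0.028 with Ace/Treml4 monocytes of fewer than 5 UMIs of Vcan and Chil3). Without the cells of other lineages and the deepest cells, the ZsG-negative medians are 1.02 for the non-classical and 1.89 for the MHC class II list.

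The MHC class II list stood above Vcan/Chil3 monocytes in the ZsG-negative library, and its place in the ZsG-positive library depended on which cells were summed. Its 8 genes tested in both, which help to present peptides to CD4 T cells, had median log2 ratios of 1.82 in the ZsG-negative and -0.78 in the ZsG-positive library, with 0 higher and 0 lower in both. With a gate sum of at least 5 the ZsG-negative median was 1.16. The ZsG-positive median was -0.211 with a gate sum of at least 5 (5 cells) and -0.028 with Ace/Treml4 monocytes of fewer than 5 UMIs of Vcan and Chil3, a choice made after seeing the data. Under the latter Cd74 turned from -0.53 to 0.27 and H2-Ab1 from -0.91 to 0.03. H2-Aa stood at 1372 CPM in ZsG-negative and 1294 CPM in ZsG-positive Ace/Treml4 monocytes, against 222.2 and 2557 CPM in Vcan/Chil3 monocytes. H2-Eb1 stood at 634.9 and 644.3 CPM, against 79.9 and 1754 CPM, and Cd74, the chaperone of class II molecules, at 4234 and 4463 CPM against 975.7 and 6428 CPM. At a gate sum of 3 or 4 the ZsG-positive level of H2-Aa was the lower one, 1150 against 1853 CPM (log2 ratio -0.69, -0.98 to -0.40). Among ZsG-positive Ace/Treml4 monocytes it stood at 2400 CPM in the 13 cells with fewer than 5 UMIs of Vcan and Chil3 and at 514.2 CPM in the other 14.

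Free RNA may bear on the ZsG-positive values. It was gauged in NK-like cells, and the source of the transcripts in them was not tested. NK-like cells, which should lack class II, carried 908.6 CPM of H2-Aa, 813.9 CPM of H2-Eb1 and 1340 CPM of Cd74 in the ZsG-positive library, against 26.0, 22.0 and 84.7 CPM in the ZsG-negative library. H2-Eb1 in ZsG-positive Ace/Treml4 monocytes lay below that background and is not read as expression, and Cd74 stood above it. H2-Aa in the 14 ZsG-positive cells with 5 or more UMIs of Vcan and Chil3 (514.2 CPM) also lay below its background. That level is not read as expression either. In ZsG-negative cells H2-Aa was uneven. H2-Aa was found in 38 of 72 Ace/Treml4 monocytes, with a median of 1 UMI and a maximum of 105, and 7 cells held 54.5% of its UMIs. The level of H2-Aa was therefore that of few cells and not of all. This held also in ZsG-negative Vcan/Chil3 monocytes, where 19 of 113 cells held it and 11 cells had 88.6% of its UMIs. Cd74 was more widespread, in 63 of 72 Ace/Treml4 monocytes with a median of 14.5 UMIs, against a median of 1 in Vcan/Chil3 monocytes.

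Of the other lists, those of type I interferon response, interferon gamma response, Toll-like receptors, complement, lysosome, MHC class I, Fc gamma receptors, heat shock, immediate early and cell cycle genes had 0 genes higher and 0 lower in both libraries. The type I interferon list had median log2 ratios of -0.37 and -0.40 over 16 genes, and the interferon gamma list 0.28 and 0.62 over 14. Lipid handling (14 genes) had 1 gene lower, Lpl, TNF and NF-kB (16 genes) 1 lower, Ier3, and survival (13 genes) 1 higher, Bcl2. Among all genes 1.57% were higher and 1.09% lower in both libraries, so that counts of 0 or 1 in lists of this size say little about these programs.

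Markers of other cells were counted in the same sums. The macrophage list had 0 of 11 genes higher or lower in both libraries (median log2 ratios -0.57 and -0.74), with Apoe its most abundant gene. In the ZsG-positive library alone 9 of 21 macrophage genes were lower and 1 higher (12.2% of all genes lower). With Ace/Treml4 monocytes of fewer than 5 UMIs of Vcan and Chil3, chosen after seeing the data, 5 of 10 were lower in both. Among all genes 120 of 5811 were lower in both under that choice. Ace is also a gene of vessel-lining cells, and of 12 endothelial markers 10 had 0 UMIs in all 99 cells, with Vwf the highest at 3 UMIs. The T cell list had 42 UMIs in ZsG-negative and 0 in ZsG-positive cells. The NK list stood at 362.6 CPM against 499.0 CPM in Vcan/Chil3 monocytes of the ZsG-negative library and at 70.9 against 119.1 CPM in the ZsG-positive library. Of its 205 ZsG-negative UMIs, 88 came from 1 cell. The plasmacytoid dendritic cell list stood at 392.6 CPM against 312.9 CPM in Vcan/Chil3 monocytes of the ZsG-negative library. There 4 of its 7 genes were higher and 0 lower (median 1.29), against 333 higher of all 6335 genes tested. In that library 164 of the list's 222 UMIs were in 1 cell. In the ZsG-positive library it stood at 82.8 against 69.5 CPM. Of its 2 genes tested in both libraries 1 was higher in both, Runx2, a transcription factor, at 77.8 against 27.3 CPM and at 41.4 against 4.76 CPM. The conventional dendritic cell list had 1 of 6 genes lower in both (Clec10a) and 0 higher. No doublet caller was run, and the part of doublets in these values was not tested.

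Several levels graded with the gate sum in the ZsG-negative library. From cells at 0, at 1 to 2, at 3 to 4, at 5 to 9 and at 10 or more UMIs, the non-classical list stood at 5302, 7629, 9632, 13920 and 17930 CPM. Spn stood at 32.1, 61.8, 101.2, 247.1 and 367.6 CPM and Eno3 at 2.19, 10.9, 88.5, 159.6 and 374.5 CPM. The classical list ran from 17610 and 19670 CPM outside the gate to 17770, 14150 and 10690 CPM inside it, and Ccr2 from 1120 and 1114 to 626.1, 513.1 and 235.8 CPM. In the ZsG-positive library 22 of 27 cells stood at 3 to 4 UMIs, where the non-classical list reached 7424 CPM against 3652 CPM at 0, while the classical list stood at 15410 against 14560 CPM. Not all genes were graded. In ZsG-negative cells of the same steps, Hpgd stood at 120.5, 227.1, 139.1, 258.5 and 339.9 CPM and H2-Aa at 1921, 585.0, 1853, 687.9 and 2095 CPM.

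Ace/Treml4 monocytes with and without Vcan and Chil3 differed in degree. Of the ZsG-negative cells, the 42 with fewer than 5 UMIs of Vcan and Chil3 held Ace at 583.6, Cx3cr1 at 360.4 and Spn at 319.3 CPM. The 30 cells with 5 or more held them at 262.7, 164.2 and 149.6 CPM. Ly6c2 went the other way, at 401.6 against 820.9 CPM, and so did Ccr2, at 291.8 against 667.7 CPM. For Spn, Ly6c2 and Ccr2, the cells with both sets of genes thus stood between the other Ace/Treml4 monocytes and the Vcan/Chil3 monocytes. In the ZsG-positive library, with 13 cells of fewer than 5 UMIs and 14 of 5 or more, Ace stood at 300.0 against 191.6 CPM and Ly6c2 at 642.8 against 836.9 CPM, with intervals that overlapped. Cx3cr1 had the opposite order there, at 42.9 against 80.7 CPM on 3 and 8 UMIs, also with overlapping intervals.

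The study sorted cells on ZsG, and both libraries were set side by side for Ace/Treml4 monocytes. Of 4415 genes tested, 258 (5.84%) were at least 2-fold higher in ZsG-positive and 435 (9.85%) at least 2-fold lower. With cells matched at a gate sum of 3 or 4 (22 ZsG-positive and 20 ZsG-negative), 135 were higher and 88 lower of 2186, a choice made after seeing the data. Since the gate sums of the groups differ and gate and library cannot be told apart, log2 ratios at the matched sum and in Vcan/Chil3 monocytes are given beside those of the genes described.

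Ccl7, Lyz1, Il1a, Lpl, Hspa1a, Ccl2, Dmkn and Cxcl9 led the genes higher in ZsG-positive cells, several of them through single cells. Ccl7 stood at 656.1 CPM in ZsG-positive cells against 7.08 CPM, a log2 ratio of 6.37 (5.14 to 8.44), which was 6.28 at the matched sum and 4.44 in Vcan/Chil3 monocytes. Of its 111 UMIs, spread over 18 cells, 77 came from 1 cell. Ccl2 stood at 1572 against 208.7 CPM (2.91, 2.60 to 3.24), with 154 of 266 UMIs from 1 cell, 2.19 at the matched sum and 2.40 in Vcan/Chil3 monocytes. Cxcl9, an interferon-induced chemokine, stood at 2494 against 491.7 CPM (2.34, 2.12 to 2.57), over 19 of 27 cells and 22 of 72, with 1.88 at the matched sum, 1.62 without the cells of other lineages and the deepest cells, and 1.15 in Vcan/Chil3 monocytes. NK-like cells in the ZsG-positive library held 98.2 CPM of Ccl7, 161.4 CPM of Ccl2 and 108.8 CPM of Cxcl9, below the levels of Ace/Treml4 monocytes.

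Lpl stood at 301.4 against 24.8 CPM (3.57, 2.73 to 4.57), and at 2.95 at the matched sum and 3.01 in Vcan/Chil3 monocytes. Of its 51 ZsG-positive UMIs, 22 came from 1 cell, and without the cells of other lineages and the deepest cells its ratio was 1.73. The chemokine receptor gene Ccr1 had a log2 ratio of 2.80, of 1.65 at the matched sum, of 1.57 without the cells of other lineages and the deepest cells, and of 0.46 in Vcan/Chil3 monocytes. On the hypoxia and glycolysis list 5 of 8 genes were higher and 0 lower, with a median log2 ratio of 1.12, against 1.75 in Vcan/Chil3 monocytes. The glycolytic enzyme gene Tpi1 was among them, at 401.9 against 69.0 CPM (2.53, with 2.24 at the matched sum and 2.72 in Vcan/Chil3 monocytes), with 361.3 CPM in NK-like cells of the ZsG-positive library. On the type I interferon list 5 of 16 were higher and 0 lower, with a median of 0.65, against 0.80 in Vcan/Chil3 monocytes. These shares were above the 5.84% of all genes, and the medians in Vcan/Chil3 monocytes were larger. At the matched sum 3 of 7 hypoxia and glycolysis genes and 2 of 13 type I interferon genes were higher (all genes 6.18%), with medians of 0.95 and 0.67. The remaining leading genes rested on few cells. Il1a had 15 of 26 UMIs in 1 cell and log2 ratios of 5.15, 4.40 at the matched sum and 0.98 in Vcan/Chil3 monocytes. Lyz1, whose reads can be confused with its copy Lyz2, had 22 of 23 UMIs in 1 cell and log2 ratios of 5.71, 1.84 and 1.82. Hspa1a, a heat shock gene with a near-identical copy, had 53 of 66 UMIs in 1 cell and log2 ratios of 3.30, 0.03 and 2.35. Dmkn had 18 UMIs in 7 cells and log2 ratios of 3.78, 2.22 and 0.60. Without the cells of other lineages and the deepest cells the ratios were 5.61 for Dmkn, 4.99 for Il1a and -0.22 for Hspa1a. The ratio of Lyz1 at the matched sum rested on 1 UMI against 0.

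The non-classical list stood lower in ZsG-positive cells, by less at a matched gate sum. Of its 30 genes, 16 were lower and 0 higher (all genes 9.85% lower), with a median log2 ratio of -1.02, close to the -0.99 of the same list in Vcan/Chil3 monocytes. At the matched sum 4 of 23 were lower and 1 higher (all genes 4.03% and 6.18%), with a median of -0.47, and the summed list stood at 7424 against 9632 CPM. Hpgd stood at 23.6 CPM in ZsG-positive against 245.8 CPM in ZsG-negative Ace/Treml4 monocytes, a log2 ratio of -3.21 (-5.27 to -1.99), and of -2.43 at the matched sum, -2.04 without the cells of other lineages and the deepest cells, and -4.71 in Vcan/Chil3 monocytes. Cx3cr1 stood at 65.0 against 265.3 CPM (-1.97), and at -1.94 at the matched sum, -1.02 without those cells, and -3.93 in Vcan/Chil3 monocytes. Spn had a log2 ratio of -2.24 (-3.57 to -1.31), with -0.88 at the matched sum and -2.36 in Vcan/Chil3 monocytes. Nr4a1 had -1.08, with -0.47 and -1.07, Pou2f2 -1.43, with -0.58 and -1.78, and Itgal -0.64, with 0.17 and -0.99. Thus Hpgd and Cx3cr1 stood lower also among cells with a gate sum of 3 or 4, on 3 and 7 ZsG-positive UMIs (intervals -5.00 to -0.88 and -3.44 to -0.82), while Spn, Nr4a1 and Pou2f2 differed there by less than 2-fold and Itgal turned sign.

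Mef2c, a transcription factor of myeloid and lymphoid cells, stood at 23.6 against 187.5 CPM (-2.82, -4.89 to -1.59), and at -2.66 at the matched sum but -0.74 in Vcan/Chil3 monocytes. Ypel3 stood at 29.6 against 187.5 CPM (-2.53), and at -2.22 at the matched sum and -3.19 in Vcan/Chil3 monocytes. Eno3 had a log2 ratio of -2.35 (-3.93 to -1.29), with -1.79 at the matched sum and 1.29 in Vcan/Chil3 monocytes. Gzma, Ly6d and Ccr9 had 0 UMIs in ZsG-positive cells, which allows up to 17.7 CPM (3 counts), and in ZsG-negative cells 63 of 95, 45 of 45 and 31 of 32 of their UMIs came from 1 cell. Gzma is known from NK cells, and Ly6d and Ccr9 are on the plasmacytoid dendritic cell list.

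**Figure D5:**
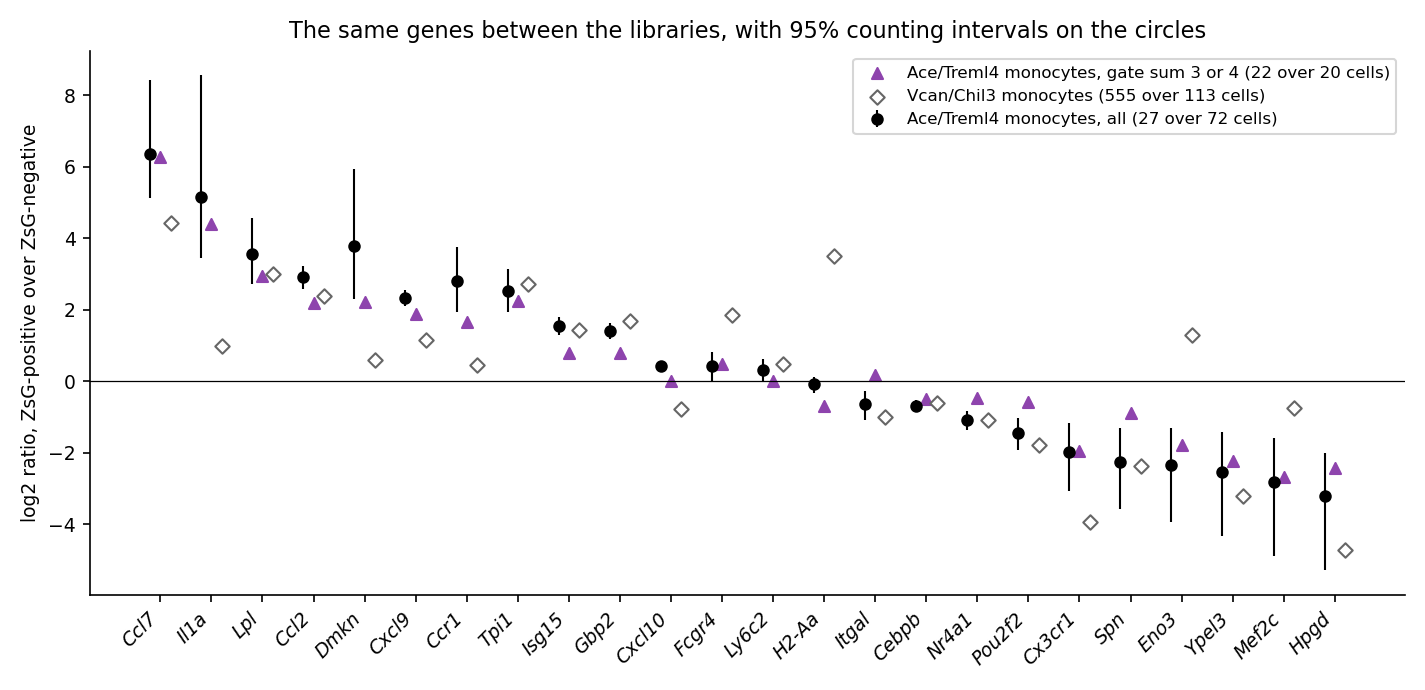
The log2 ratio of ZsG-positive over ZsG-negative levels (vertical axis) for 24 genes, with 95% counting intervals on the circles. Circles are all Ace/Treml4 monocytes, triangles those with a gate sum of 3 or 4, and diamonds Vcan/Chil3 monocytes. Among the circles Ccl7 stands highest at 6.37 and Hpgd lowest at -3.21, and H2-Aa lies at -0.08, and at -0.69 with a gate sum of 3 or 4.

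The cells of the ZsG-positive library were also set against 1725 macrophages with at least 10 UMIs of the C1q genes. There were only 5 of these in the ZsG-negative library, too few to compare. Of 11071 genes, 2372 (21.4%) were at least 2-fold higher and 1577 (14.2%) at least 2-fold lower in Ace/Treml4 monocytes. Of the 2372, 614 had 0 UMIs in the 27 cells and passed only through the added 0.5, and 1382 also passed without it.

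Genes of both monocyte forms stood above the macrophages. The non-classical list had 19 of 30 genes higher and 0 lower (median log2 ratio 1.62), and the classical list 9 of 22 higher and 0 lower (0.53). Itgal stood at 3.71, Ceacam1 at 4.33, Trem3 at 4.43, Adgre5, the adhesion receptor CD97, at 3.59, and Gsr, glutathione reductase, at 4.46 on the log2 scale. Against Vcan/Chil3 monocytes, Adgre5 and Gsr had log2 ratios of 0.65 and 0.20 in the ZsG-negative library. In the ZsG-positive library these were 2.07 and 1.83. Slc12a2, an ion cotransporter, stood at 70.9 against 1.40 CPM (5.70, 4.58 to 6.64), and Lilra5 had 4 UMIs.

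Macrophage and cycling genes stood below. The macrophage list had 17 of 22 genes lower and 0 higher (median -2.11), the cell cycle list 13 of 18 lower and 0 higher (-2.33), and the MHC class II list 6 of 10 lower and 0 higher (-1.14). Spp1, osteopontin, stood at 11.8 CPM, on 2 UMIs, against 505.4 CPM in macrophages, and the chemokine gene Ccl8 at 47.3 against 975.0 CPM (log2 ratio -4.28). Lgmn, a lysosomal protease, stood at 141.9 against 1101 CPM (-2.93). Pf4 and Adam8 had 0 UMIs, against 328.1 and 135.6 CPM in macrophages.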

How the data were processed

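Single-cell 3′ libraries of sorted tumor-infiltrating leukocytes were read as the UMI counts per gene and cell that the authors deposited, made with Cell Ranger against mm10. The submitters' notes give version 6.1.2, the header of the CD45+ matrix 7.0.0, and the libraries were combined by aggregation. The sources used here do not say whether depth was evened. Cells were filtered on genes and mitochondrial share with the study's limits and chosen by the raw counts stated in the results. The members and gene lists were chosen with earlier results of these data known. Counts were summed per library and group, with exact Poisson intervals for CPM, Clopper-Pearson intervals for shares and exact conditional intervals for ratios (Python 3.11.15, scipy 1.17.1), and TMM factors came from edgeR 4.0.16. No count model was fitted to genes, since each gate is 1 library. Shares were also computed after thinning to 3000 UMIs, leaving out shallower cells. The ratio script was tested on simulated data. Genes named were, among genes past 2-fold in both libraries, the 15 highest and 15 lowest by the interval bound nearest 0, the 8 highest and 8 lowest between gates and against macrophages, and members of the fixed lists. Rule, mitochondrial, ribosomal and unnamed genes were left out. Gene coordinates are from GENCODE vM21 (mm10). The T cell sort, whose labels disagree on which barcode suffix is which gate, was pooled and used only for a count. Alternatives covered the gate, comparison cells, scaling, weighting and count minimum. A few genes that these rules name are not reported here.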

Additional observations from a re-analysis of the deposited data

Results flagged for a closer look

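MHC class II genes had ratios of opposite sign in the libraries, a difference that depended on which cells were summed. The list's median log2 ratio of Ace/Treml4 over Vcan/Chil3 monocytes was 1.82 in the ZsG-negative and -0.782 in the ZsG-positive library. The latter was -0.028 with Ace/Treml4 monocytes of fewer than 5 UMIs of Vcan and Chil3 (a choice made after seeing the data), with Cd74 at 0.27, and -0.211 with a gate sum of at least 5, with Cd74 at 0.0. H2-Eb1 stood at 2.98 and -1.44 and H2-DMb1 at 1.02 and -1.10. With a gate sum of at least 5 they stood at 2.03 and -0.59 and at 0.35 and -0.31. With fewer than 5 UMIs of Vcan and Chil3 they stood at 3.15 and -0.35 and at 0.8 and -0.39. H2-DMb1 was also below 2-fold in the ZsG-negative library with per-cell means (0.95) and against comparison cells with no gate UMI (0.87). Without the cells of other lineages and the deepest cells it stood at 1.71 and -1.25. The opposite calls of both genes thus depended on the setting. The ZsG-positive level of H2-Eb1 (644.3 CPM) lay below that of NK-like cells (813.9 CPM), so that its ZsG-positive ratio is not read as a change of expression. Ifitm1, an interferon-induced membrane protein, stood at 1.10 and -1.36 on 26 and 4 UMIs, and Dpp4, a surface peptidase, at -1.01 and 1.60 on 4 and 2 UMIs, with intervals that held 0 in both libraries. The differences between the libraries were not tested, since each gate was 1 library.

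The same rule was applied to the T cell sort, which the comparisons do not use and which should hold no monocytes. It found 9 of 2694 cells, or 0.334% (0.153 to 0.633), beside 81 Vcan/Chil3 monocytes. These 9 cells held 10 UMIs of Ace, 14 of Adgre4 and 10 of Treml4, which chose them, and 16 of Hpgd, 15 of Cx3cr1, 10 of Spn and 11 of Eno3, which did not. They were fewer than the 20 cells set as the minimum for a comparison. Of their barcodes and those of the CD45+ libraries, 9 were shared over all cells and 0 among Ace/Treml4 monocytes.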

How the results depend on the processing

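No paired analysis was possible because each gate was 1 library, which also leaves no replicate to leave out. The counts of genes higher and lower than Vcan/Chil3 monocytes in both libraries (98 and 68) became 61 and 30 with a gate sum of at least 2, of which 51 and 17 were shared, and 164 and 76 with a sum of at least 5, of which 69 and 25 were shared. Under the latter, 5 ZsG-positive cells were left (57 with a sum of at least 2). Without cells that held 2 or more UMIs of the NK, T, B cell and plasmacytoid dendritic cell lists or the deepest 5% of cells, 19 ZsG-negative and 11 ZsG-positive cells were left, and 39 genes were higher and 28 lower of 2275 tested, with 8 of 20 non-classical genes higher and 0 lower. A minimum of 100 UMIs per library gave 25 and 17, and no minimum 693 and 157. With Ace/Treml4 monocytes of fewer than 5 UMIs of Vcan and Chil3, chosen after seeing the data, the counts were 180 and 120, and the MHC class II median in the ZsG-positive library was -0.028. Limits on Lyz2, C1q, mitochondrial share, Vcan and Chil3, totals without mitochondrial and ribosomal genes, per-cell means and, added after seeing the data, comparison cells with no gate UMI or calls without the added 0.5 gave 84 to 126 higher and 62 to 95 lower. Between gates, 258 higher and 435 lower became 116 and 137 without the cells of other lineages, 44 and 55 at 100 UMIs, and 135 and 88 at a gate sum of 3 or 4, which turned the balance. Against macrophages, 1382 genes were higher without the added 0.5. Without thinning, 84.6% held Ace, 76.2% Adgre4 and 76.7% Treml4 among ZsG-negative cells chosen without the gene. Among genes named from the lists, Nr4a1 in the ZsG-positive library turned from 0.60 to -0.11 at a sum of at least 5, and Cd74 from -0.53 to 0.27 and H2-Ab1 from -0.91 to 0.03 with fewer than 5 UMIs of Vcan and Chil3. Of 780 values of the 30 genes named for passing 2-fold in both libraries, 684 stayed within their counting interval and 94 moved beyond it with the same sign. The other 2 turned sign, Thbs1 in the ZsG-positive library at a sum of at least 2 (0.11) and Ccl7 in the ZsG-negative library without the cells of other lineages (0.22), where the cause was not tested. With 27 ZsG-positive cells and 169184 UMIs, a gene at 0 may stand at up to 17.7 CPM by the floor of 3 counts (21.8 CPM by the exact 95% interval).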
